A study of Mus musculus with 16 samples.

Results

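The genes of oxidative phosphorylation were followed in B cells of lupus-prone congenic mice and their parental strain. The members were the probe sets whose single gene symbol begins with Ndufa, Ndufb, Ndufc, Ndufs or Ndufv and a digit, with Cox4 to Cox8, Uqcr, Atp5 or Sdha to Sdhd, or is Cycs. This rule found 174 probe sets of 86 genes, among 45037 probe sets and 18193 genes named by a single symbol. The probe set with the highest mean over the 16 arrays stood for a gene. By complex, 33 members belong to complex I, 4 to complex II, 8 to complex III, 19 to complex IV (Ndufa4 and Ndufa4l2 included) and 17 to complex V. The remaining members are Cycs, which encodes cytochrome c, and the complex II assembly factors Sdhaf1 to Sdhaf4.

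RNA levels were compared on Affymetrix mouse arrays in 4 groups of 4 arrays: Sle2c1_B1a, B6_B1a, Sle2c1_Bs and B6_Bs. Sle2c1 stands for the congenic B6.Sle2c1 strain, which carries the Sle2c1 locus of the lupus-prone NZM2410 strain on the C57BL/6 background, and B6 for C57BL/6. All mice were 5 months old. B1a denotes B cells of the peritoneal cavity that survived a 2 h culture to remove adherent macrophages, a Thy1.2 and CD3ε depletion and a CD5 selection, and 80% of the preparation was B220int CD5+ per the labels. Bs denotes CD43- splenic B cells, more than 90% of which were B220hi. B1a and Bs cells thus differ in organ, culture and selection as well as in type, and these cannot be told apart. The labels call the 4 arrays of a group biological replicates without naming animals or pools, so the p-values below measure the spread between these samples.

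Oxidative phosphorylation passes electrons from NADH (complex I) and succinate (complex II) through complex III and cytochrome c to oxygen at complex IV. The proton gradient built on the way drives ATP synthase, complex V. Most subunits are encoded in the nucleus and are made in fixed proportions, and several subunits of complex IV have tissue-specific isoforms. NRF-1, GABP (also called NRF-2) and the PGC-1 coactivators are known to drive many of these genes together. Resting B cells rely on this pathway for much of their ATP, and B1a cells are a self-renewing B cell type known for an active metabolism.

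Values are given in units of the deposited score, a log-like signal whose log base, centring and scaling the sources used here do not give, so that differences are not fold changes. Each array's lowest value was shared by many probe sets and carried no order. Any value under 0.495 was set to 0.495, called the floor, which is the median of the arrays' 40th percentiles. Readings between the lowest value and the floor differed from each other, and their order was not used. Of the 86 members, 82 passed the filter on low values and were tested, 73 lay above the floor on all 16 arrays and 13 lay at it on at least 1 array. A test is a limma moderated test adjusted by Benjamini-Hochberg across 22727 features, and a member counts as higher or lower at an adjusted p under 0.05. Cdkn2c, the gene for the cell cycle inhibitor p18INK4c that the study examined in the Sle2c1 locus, was lower by this test in Sle2c1 than in B6, by -0.60 in B1a cells (adjusted p = 0.00392) and by -0.89 in Bs cells (adjusted p = 0.00114, and 0.242 with the replicate numbers as a block). Its probe set lay at the floor on 2 of 4 Sle2c1_B1a and 3 of 4 Sle2c1_Bs arrays, so these sizes depend on the floor. The call was lost without a floor (adjusted p = 0.406 in B1a cells and 1 in Bs cells), with the floor at 1 (0.189 and 0.0729) and, in Bs cells, with percentile ranks (0.0667). Pairs of arrays correlated at 0.781 to 0.971 inside a group and at 0.699 to 0.977 across groups, and the array B6_Bs 1 lay on the side of the B1a arrays on the first principal component. Over the 7 B1a marker genes, the mean was 1.76 to 2.06 in Sle2c1_B1a, 1.97 to 2.01 in B6_B1a, 0.985 to 1.02 in Sle2c1_Bs and 0.954 to 1.08 in B6_Bs. Cd5 and Bhlhe41 lay at the floor on all 8 Bs arrays. Cd5 also lay at it on 2 of 4 Sle2c1_B1a arrays, and Bhlhe41 on 3 of 4 Sle2c1_B1a and 1 of 4 B6_B1a arrays.

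Taken as a whole, the members had overlapping mean levels in the 4 groups. The mean over the 73 members above the floor on all arrays was 2.63, 2.70, 2.65 and 2.71 on the 4 Sle2c1_B1a arrays, against 2.66, 2.70, 2.70 and 2.64 on the B6_B1a arrays. It was 2.69, 2.61, 2.65 and 2.60 on the Sle2c1_Bs arrays, against 2.71, 2.70, 2.63 and 2.62 on the B6_Bs arrays. All 4 groups overlapped, and arrays of 1 group lay farther apart than the group means did. The spread between replicates was small for these 73 members: a member's median SD within groups was 0.0208 to 0.159 units, with a median of 0.0752. Among tested members at the floor on some arrays it reached 0.483 units (Cox7b2).

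**Figure D1:**
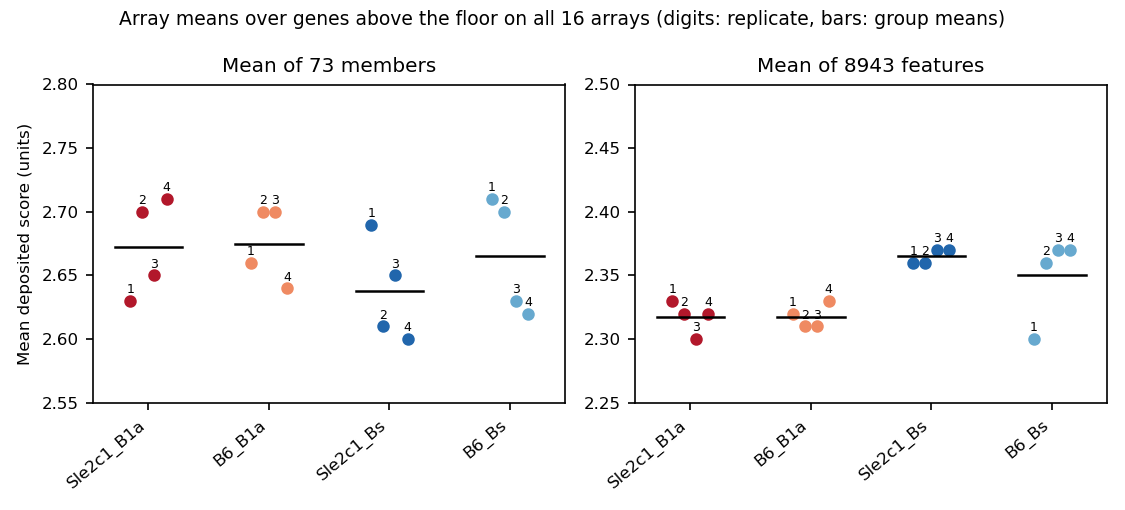
Mean deposited score per array over the 73 members (left) and over the 8943 features (right) that lay above the floor on all 16 arrays, with digits for the replicate number and bars for the group means; each panel has its own axis range, which does not start at 0. The members' means of all 4 groups overlap, with Sle2c1_Bs 1 (2.69) high in its group and B6_Bs 3 and 4 (2.63 and 2.62) low in theirs.

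Within a group, members tended to be high or low on the same array. Of the 73 members above the floor throughout, 40 (54.8%) had their highest value of the group on Sle2c1_Bs 1, against 17.8% of the 8943 features above the floor throughout. On B6_B1a 4, 39 members (53.4%) had their lowest value, against 29.1% of these features. The lowest value fell on Sle2c1_B1a 1 for 34 members (46.6%, against 23.7% of features) and on B6_Bs 4 for 35 members (47.9%, against 20.8%). These shares describe single arrays, and members of 1 array share its RNA and its scaling.

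In B1a cells no member passed the test between the strains. Between Sle2c1_B1a and B6_B1a, 0 of 82 members passed in limma, 2 had an unadjusted p under 0.05, and 3.38% of all features passed. Of the 73 members above the floor throughout 0 passed, against 1.29% of the other 8870 features above it throughout. The median difference over members was 0.00125 units, with 41 members above 0 and 41 below, and it was 0.025 over all features. These hold for the deposited scaling: with each array centred on its median, the median was -0.123 units over members and -0.0725 over all features, and with scaling by the median absolute deviation as well -0.0931 and -0.0548. The 95% confidence interval of the difference lay wholly within 0.25 units of 0 for 63 of the 82 members, and its median half-width was 0.146 units.

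The smallest adjusted p belonged to Cox7a2l, which encodes a protein known to join complexes III and IV into supercomplexes and of which C57BL/6 mice are known to carry a shortened form. It stood at 3.21, 3.39, 3.38 and 3.32 in Sle2c1_B1a, against 3.46, 3.51, 3.54 and 3.42 in B6_B1a. The 4 Sle2c1 arrays all lay below the B6 arrays, by -0.16 ± 0.07 units (SE, n = 4 each, limma adjusted p = 0.253). Ndufb7, an accessory subunit of complex I, had 2.51, 2.43, 2.32 and 2.44 in Sle2c1_B1a, against 2.22, 2.28, 2.29 and 2.27 in B6_B1a. These groups did not overlap either, and the difference was 0.16 ± 0.07 units (limma adjusted p = 0.287). Cox7a1, the heart and muscle isoform of a complex IV subunit, lay above the floor on 1 Sle2c1_B1a array and 3 B6_B1a arrays (difference -0.28, limma adjusted p = 0.302).

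Counting separation instead of p-values, 4 members had strain groups that did not overlap in B1a cells, against 8.38% of all features. Besides Cox7a2l and Ndufb7 they were Cox4i1, the common form of the regulatory complex IV subunit 4 (-0.12 ± 0.06 units), and Atp5b, the catalytic beta subunit of ATP synthase (-0.07 ± 0.06 units), the last of which is named after its values were seen. With 4 arrays against 4, an exact two-sided permutation test cannot go below p = 0.0286. Macrophage markers moved with strain here: their mean over 15 genes was 1.06 to 1.11 in Sle2c1_B1a and 1.39 to 2.34 in B6_B1a, 7 of the 15 were lower in Sle2c1, and Timd4, C1qb, C1qc, Csf1r, Apoe and Marco never left the floor in Sle2c1_B1a. Over 6 T cell markers the mean was 0.529 to 1.09 in Sle2c1_B1a and 1.06 to 1.28 in B6_B1a. Over 6 mast cell markers, of which 0 passed in limma, it was 0.788 to 1.43 in Sle2c1_B1a and 1.3 to 1.82 in B6_B1a. The part of such cells in the members' values was not tested, and fewer cells of a type cannot be told apart from less RNA per cell in such bulk samples.

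In Bs cells no member passed the test between the strains either. Between Sle2c1_Bs and B6_Bs, 0 of 82 members passed in limma, 1 had an unadjusted p under 0.05, and 0.154% of all features passed. Of the other 8870 features above the floor throughout, 0.0225% passed. The median difference over members was -0.03 units (25 members above 0, 57 below), against 0.015 over all features. With each array centred on its median it was -0.101 units over members and -0.0338 over all features, and with scaling by the median absolute deviation as well -0.0481 and -0.0133. Groups did not overlap for 0 members, against 2.34% of all features. The 95% confidence interval lay within 0.25 units of 0 for 67 members. Marker means differed here as well, at 0.985 to 1.13 in Sle2c1_Bs and 1.21 to 1.33 in B6_Bs over 15 macrophage genes. Over 3 erythroid genes they were 0.495 to 0.638 in Sle2c1_Bs and 0.678 to 1.5 in B6_Bs. The ranges overlapped over 4 NK cell genes (0.834 to 1.37 in Sle2c1_Bs, 1.25 to 1.56 in B6_Bs) and over 7 neutrophil genes (1.25 to 1.78 and 1.48 to 1.8). The part of these markers in the members' values was not tested.

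Ndufa8, an accessory subunit of complex I, had the smallest unadjusted p of the strain comparison in Bs cells. It stood at 2.48, 2.38, 2.33 and 2.65 in Sle2c1_Bs, against 2.69, 2.61, 2.55 and 2.65 in B6_Bs. The groups overlapped through Sle2c1_Bs 4, and the difference was -0.165 ± 0.08 units (SE, n = 4 each, limma adjusted p = 1). Atp5g3, which encodes 1 of several copies of the membrane ring subunit c of ATP synthase, differed by -0.13 ± 0.07 units and Ndufb2 of complex I by -0.08 ± 0.05 units (limma adjusted p = 1 for both).

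The replicate numbers were treated as pairs of Bs arrays of the 2 strains, since arrays of the same number tended to deviate together. This pairing was inferred from these values and is not given by the labels. It is weak for number 2, whose correlation (0.14) lay below the highest among differently numbered arrays (0.32). Taken by pair, 12 of 82 members (14.6%) lay lower in Sle2c1 in 4 of 4 pairs, against 4.64% of all features and 7.46% of the 8943 features above the floor throughout. No member lay higher in 4 of 4 pairs, against 7.28% of all features and 8.49% of those above the floor throughout. These pairs were counted in the deposited scaling only. The 12 were chosen after their values were seen: Atp5c1, Atp5g1, Atp5g2, Atp5g3 and Atp5k of ATP synthase, Ndufa6 and Ndufs3 of complex I, Cox6a1 and Ndufa4 of complex IV, Uqcrq of complex III, Sdha of complex II and Cycs. All members came from the same 4 pairs of arrays, so these 12 are not independent of each other. In mean difference, further probe sets of Atp5c1 (0.173), Sdha (0.075 and 0.414) and Uqcrq (0.119 and 0.282) had Sle2c1 above B6. Further sets of Atp5g2, Atp5k, Cox6a1 and Cycs that differed at all had Sle2c1 below B6. With the numbers as a block, 0 members passed in limma and 5 had an unadjusted p under 0.05, all with Sle2c1 below B6 (lowest adjusted p = 0.605).

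No member passed the test of whether the strain effect differs between the cell types. For the difference of the strain effects (B1a minus Bs), 0 of 82 members passed in limma, and 1 had an unadjusted p under 0.05. Of all features 0.431% passed, and of the other 8870 features above the floor throughout 0.0451%. The member with an unadjusted p under 0.05 was Cycs. Its strain difference was 0.09 units in B1a cells and -0.08 in Bs cells (difference of differences 0.17 ± 0.08, limma adjusted p = 0.658). Ndufa8 (0.215 ± 0.11 units, limma adjusted p = 0.728) and Ndufb2 (0.13 ± 0.07 units, limma adjusted p = 0.745) followed. Intervals of this difference were wider than those of the strain comparisons, with a median half-width of 0.207 units, and lay within 0.25 units of 0 for 38 of the 82 members.

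**Figure D2:**
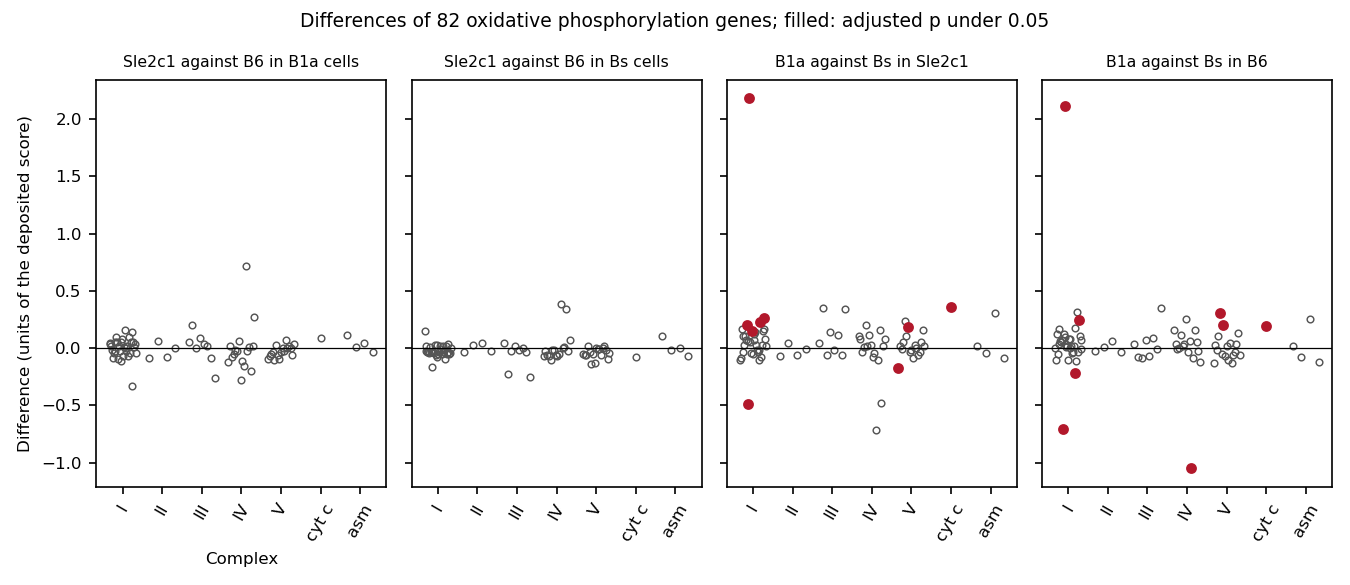
Difference of each of the 82 tested members in units of the deposited score, by complex (cyt c, cytochrome c; asm, complex II assembly factors), for the 4 comparisons of 2 groups; filled points passed the limma test. No member passed between the strains, and between the cell types Ndufb1 lay highest (2.18 and 2.11 units) and most others lay near 0.

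Between the cell types, few members changed, and not in 1 direction. In Sle2c1, 7 of 82 members were higher in B1a than in Bs cells and 2 were lower, where 11% of all features were higher and 14.7% lower. In B6, 5 members were higher and 3 lower, where 9.02% of all features were higher and 12.2% lower. The members' shares are thus near or below those of all features, and the median difference was 0.025 units in Sle2c1 (-0.045 over all features) and 0.0188 in B6 (-0.0525 over all features). Groups did not overlap for 13 members in Sle2c1, against 25.5% of all features, and for 14 in B6, against 22.4%. Without the 4 arrays that stood apart (Sle2c1_B1a 4, B6_Bs 1, B6_Bs 3 and Sle2c1_Bs 3), 4 were higher and 4 lower in Sle2c1, and 3 were higher and 2 lower in B6.

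The split between higher and lower depended on the scaling. Each array centred on its median gave 2 higher and 1 lower in Sle2c1 and 1 higher and 2 lower in B6. Centring and scaling by the median absolute deviation gave 1 higher and 32 lower in Sle2c1 and 1 higher and 14 lower in B6. Under that scaling 8514 of all features passed in Sle2c1 and 6544 in B6, against 5856 and 4833 in the deposited scaling. These feature counts were not split by direction. Percentile ranks gave 4 higher and 1 lower in Sle2c1 and 2 higher and 1 lower in B6, and quantile normalization 5 and 1 in Sle2c1 and 6 and 2 in B6. Ndufb1 was higher and Ndufa8 lower in both strains under each of these 4 scalings.

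Among members above the floor on all arrays, 8 of 73 (11%) passed in Sle2c1 and 6 of 73 (8.22%) in B6, against 35.8% and 31.1% of the other 8870 features above the floor throughout. The median size of the difference, whatever its sign, was 0.0675 units in Sle2c1 and 0.065 in B6 over these members. Over the other features it was 0.178 units in Sle2c1 and 0.16 in B6. The comparison of the cell types in 1 strain shares no array with that in the other strain, though all 16 arrays shared the estimate of the spread. Of the 82 members, 65 differed with the same sign in both strains. In both strains 4 were higher in B1a cells (Ndufb1, Cycs, Ndufs8 and Atp5g2), 1 was lower (Ndufa8), and 0 passed in opposite directions. These counts were not made over all features, so whether members agree between the strains more often than other genes was not tested.

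Ndufb1, a small accessory subunit in the membrane arm of complex I, differed most between the cell types. It stood at 2.46, 2.74, 2.71 and 2.79 in Sle2c1_B1a, and all 4 Sle2c1_Bs arrays were at the floor. In B6_B1a it stood at 2.66, 2.71, 2.63 and 2.62, against 0.68 on B6_Bs 1 and the floor on the other 3 B6_Bs arrays. The cell types were far apart in both strains, and the strains overlapped in B1a cells. The difference was at least 2.18 units in Sle2c1 (SE 0.07, limma adjusted p = 3.47e-11), and 2.11 ± 0.07 units in B6 with the arrays at the floor counted there (limma adjusted p = 4.73e-11). Values set to the floor have no spread, so these SEs and p-values depend on it. Both calls held under all 15 alternatives and with each of 8 arrays left out. The highest limma adjusted p over the alternatives was 0.0077 in Sle2c1 and 0.0356 in B6. Only 1 probe set measures this gene.

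Ndufa8, whose protein lies in the intermembrane space part of complex I, went the other way. It stood at 1.98, 2.03, 2.08 and 1.79 in Sle2c1_B1a, against the Sle2c1_Bs values given above. In B6_B1a it stood at 1.92, 1.90, 1.91 and 1.95, and the B6_Bs arrays began at 2.55. Every B1a array lay below every Bs array in both strains. The difference was -0.49 ± 0.08 units in Sle2c1 (limma adjusted p = 2.92e-04) and -0.705 ± 0.08 units in B6 (limma adjusted p = 1.31e-05). This gene too rests on 1 probe set, so that no second measurement bears on either complex I subunit.

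Cycs, the mobile electron carrier that also triggers the apoptosome when released into the cytosol, stood at 2.90, 2.99, 3.00 and 2.97 in Sle2c1_B1a, against 2.61, 2.64, 2.65 and 2.51 in Sle2c1_Bs. It stood at 2.80, 2.89, 2.86 and 2.94 in B6_B1a, against 2.64, 2.72, 2.74 and 2.62 in B6_Bs. The B1a arrays all lay above the Bs arrays of their strain. Cycs was higher by 0.36 ± 0.05 units in Sle2c1 (limma adjusted p = 2.07e-04, and 0.693 with scaling by the median absolute deviation) and by 0.19 ± 0.05 units in B6 (limma adjusted p = 0.0223), where that scaling turned the difference to -0.0031 and the call held with 5 of 8 arrays left out in turn. The Cycs call in B6 held under 10 of 15 alternatives. It was also lost with the mean of a gene's probe sets, median centring, the replicate numbers as a block and without the 4 arrays that stood apart.

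The promoters of these 3 genes are shown because they carry the members that stood out most between the cell types. They were read from a RefSeq promoter table of build GRCm38.p6, which covers 250 bases before to 50 after a start and held 71 of the 86 members. The spans are chr12:101975689-101975988 for Ndufb1, chr2:36049289-36049588 for Ndufa8 and chr6:50566520-50566819 for Cycs, all on the minus strand. Capitals mark matches to the motifs of NRF-1 (GCGCANGCG), GABP (ACCGGAAG) and CREB (the CRE, TGACGTCA), each searched on both strands.
Ndufb1: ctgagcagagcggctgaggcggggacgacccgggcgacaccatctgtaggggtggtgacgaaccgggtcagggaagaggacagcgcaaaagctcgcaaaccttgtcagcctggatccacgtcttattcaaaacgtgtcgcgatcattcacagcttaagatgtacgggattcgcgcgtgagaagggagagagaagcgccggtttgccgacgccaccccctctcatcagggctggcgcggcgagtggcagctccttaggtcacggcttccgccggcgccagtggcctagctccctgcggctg
Ndufa8: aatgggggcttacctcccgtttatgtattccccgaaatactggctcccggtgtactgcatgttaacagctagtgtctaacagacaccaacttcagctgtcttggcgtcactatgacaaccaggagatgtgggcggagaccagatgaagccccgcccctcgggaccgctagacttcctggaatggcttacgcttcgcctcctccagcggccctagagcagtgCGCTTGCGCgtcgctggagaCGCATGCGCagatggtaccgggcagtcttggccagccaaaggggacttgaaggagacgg
Cycs: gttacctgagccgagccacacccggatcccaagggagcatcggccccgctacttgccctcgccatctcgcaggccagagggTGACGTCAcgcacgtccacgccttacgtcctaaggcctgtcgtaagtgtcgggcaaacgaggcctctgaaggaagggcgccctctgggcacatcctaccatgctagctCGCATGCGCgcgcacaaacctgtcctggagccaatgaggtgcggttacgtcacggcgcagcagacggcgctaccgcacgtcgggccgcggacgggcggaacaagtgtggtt
The Ndufa8 promoter held the NRF-1 letters in 2 places, beginning 29 and 9 bases before the start. The Cycs promoter held them 61 bases before the start and the CRE letters 169 bases before it. The Ndufb1 window held none of the 3 motifs. Of 76 member promoters, 28.9% held the NRF-1 letters, 9.21% the GABP letters and 5.26% the CRE letters, against 6.25%, 2.3% and 1.79% of all 32851 promoters in the table. A match is a description of the letters and no measurement of binding.

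The other 2 members with the same call in both strains were Ndufs8 and Atp5g2. Ndufs8, an iron-sulfur subunit in the electron path of complex I, stood at 2.21, 2.26, 2.18 and 2.35 in Sle2c1_B1a, against 2.10, 1.93, 2.02 and 1.90 in Sle2c1_Bs. In B6 it stood at 2.18, 2.24, 2.21 and 2.16 in B1a cells, against 2.01, 2.13, 1.72 and 1.95 in Bs cells. The cell types did not overlap in either strain, and B6_Bs 2 lay nearest to the B1a arrays of its strain. Ndufs8 was higher in B1a cells by 0.26 ± 0.08 units in Sle2c1 (limma adjusted p = 0.0267) and by 0.245 ± 0.08 units in B6 (limma adjusted p = 0.0421). The call held with 4 of 8 arrays left out in turn in Sle2c1 and with 2 of 8 in B6. In both strains it was lost with quantile normalization, median centring, scaling by the median absolute deviation and percentile ranks. The sign did not turn, and the highest limma adjusted p over the alternatives was 0.759 in Sle2c1 and 0.463 in B6.

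Atp5g2, another copy of subunit c, stood at 2.75, 2.89, 2.80 and 2.91 in Sle2c1_B1a, against 2.72, 2.65, 2.57 and 2.66 in Sle2c1_Bs. In B6 it stood at 2.90, 2.92, 2.97 and 2.81 in B1a cells, against 2.79, 2.74, 2.60 and 2.67 in Bs cells. The cell types did not overlap, with the nearest arrays at 2.75 (B1a) and 2.72 (Bs) in Sle2c1 and at 2.81 (B1a) and 2.79 (Bs) in B6. Atp5g2 was higher in B1a cells by 0.19 ± 0.06 units in Sle2c1 (limma adjusted p = 0.038), where scaling by the median absolute deviation turned the difference to -0.0645, and by 0.20 ± 0.06 units in B6 (limma adjusted p = 0.0334). Each call held with 2 of 8 arrays left out in turn. Under the 15 alternatives it held in 7 in Sle2c1 and in 9 in B6. Losses in both strains came with median centring, percentile ranks, only the 8 arrays compared and the replicate numbers as a block. The calls were also lost in both strains without the 4 arrays that stood apart. The other subunit c genes did not pass: Atp5g1 averaged 1.82 ± 0.21 in Sle2c1_B1a and 1.71 ± 0.10 in Sle2c1_Bs, and Atp5g3 averaged 3.32 ± 0.06 in Sle2c1_B1a and 3.36 ± 0.09 in Sle2c1_Bs (SD, n = 4 each).

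**Figure D3:**
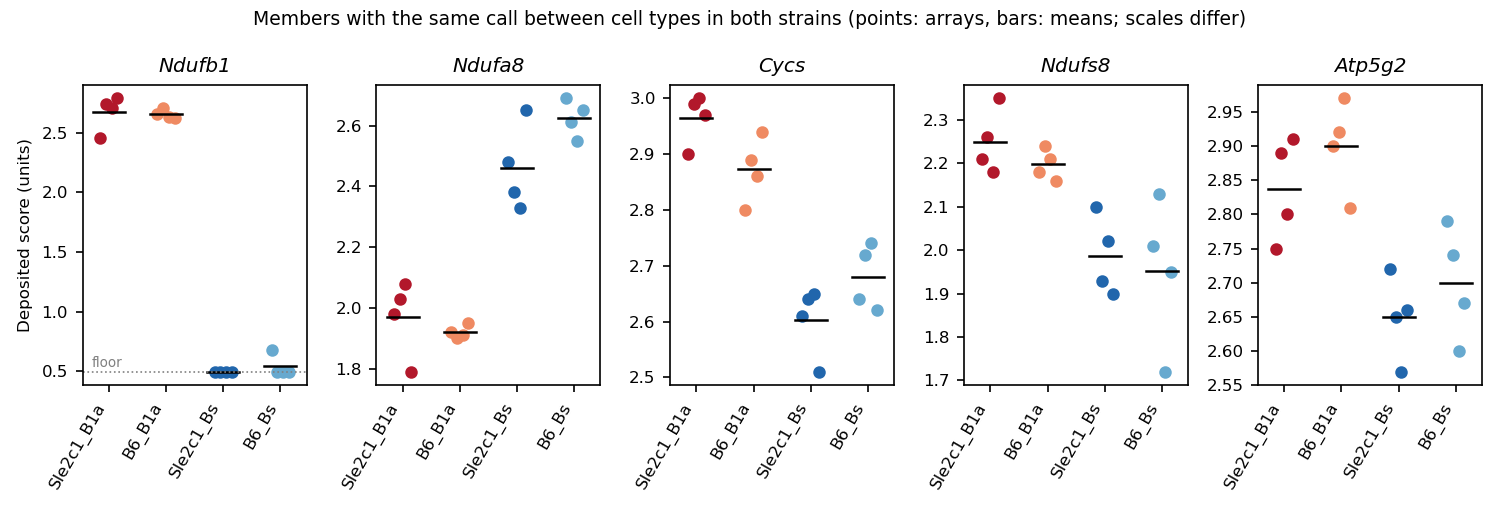
Deposited score of the 5 members that passed with the same sign between the cell types in both strains, 1 point per array and a bar at each group mean; each panel has its own range, which does not start at 0, and the dotted line in the Ndufb1 panel is the floor. Ndufb1, Cycs, Ndufs8 and Atp5g2 lie higher and Ndufa8 lower in B1a than in Bs cells. Under scaling by the median absolute deviation Atp5g2 in Sle2c1 (-0.0645) and Cycs in B6 (-0.0031) change sign. Cycs, Ndufs8 and Atp5g2 lose their calls in both strains under that scaling.

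The other members that passed did so in 1 strain. In Sle2c1, Ndufs3, a core subunit of complex I, ranged from 3.19 to 3.26 in B1a cells and from 2.89 to 3.09 in Bs cells (0.23 ± 0.07 units, limma adjusted p = 0.0234, and -0.0738 under scaling by the median absolute deviation). Ndufb2 ranged from 2.42 to 2.52 in B1a cells and from 2.23 to 2.36 in Bs cells (0.15 ± 0.05 units, limma adjusted p = 0.0332, and -0.0554 under that scaling). Ndufa7, an accessory subunit of complex I, ranged from 2.09 to 2.33 in B1a cells and from 1.90 to 2.08 in Bs cells (0.20 ± 0.07 units, limma adjusted p = 0.0386). These were higher in B1a cells without overlap. Atp5a1, the alpha subunit of ATP synthase, was lower, with 3.51 to 3.62 in B1a cells and 3.73 to 3.77 in Bs cells (-0.17 ± 0.055 units, limma adjusted p = 0.0355). The same members in B6 had differences of 0.175 (Ndufs3), 0.02 (Ndufb2), 0.0675 (Ndufa7) and -0.13 (Atp5a1) units that did not pass. With each array left out in turn, Ndufs3 kept its call in 5 of 8 fits, Ndufb2 in 4, Ndufa7 in 3 and Atp5a1 in 2.

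In B6, Atp5e, the epsilon subunit of ATP synthase, ranged from 2.97 to 3.15 in B1a cells and from 2.52 to 2.95 in Bs cells (0.305 ± 0.10 units, limma adjusted p = 0.0419). Ndufs1, the largest core subunit of complex I, ranged from 2.25 to 2.33 in B1a cells and from 2.36 to 2.64 in Bs cells (-0.22 ± 0.07 units, limma adjusted p = 0.0489). Cox7b2, an isoform of a complex IV subunit known from testis, lay above the floor on 1 of 4 B6_B1a arrays and 3 of 4 B6_Bs arrays (-1.05 ± 0.35 units, limma adjusted p = 0.0474). Atp5e was higher and Ndufs1 lower in B1a cells without overlap, while the Cox7b2 groups overlapped at the floor (exact two-sided permutation p = 0.143). With each array left out in turn, Atp5e and Ndufs1 kept their calls in 2 of 8 fits and Cox7b2 in 1. Whether any of these differences between the cell types itself differs between the strains is the difference of strain effects above, which no member passed.

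Several called genes have further probe sets. In Sle2c1, 17 of 18 further probe sets of 6 called genes differed with the same sign as the one used, and in B6 9 of 10 of 3 called genes did. These counts include sets mostly at the floor, such as a Cycs set above it on 1 array and Atp5g2 sets above it on 7 and 2. Other probe sets carry a symbol that the rule matches together with another gene's and were left out. There were 9 such sets, of which 6 lay above the floor on all 16 arrays. They bear on Ndufb4, whose own probe set was above the floor on 1 array, and on Ndufs5, above it on 15. Ndufa11 and Ndufs6 were measured only by such sets and are not among the members. The set of Ndufs5 and Ndufs5-ps, above the floor on all 16 arrays, averaged 2.26 in Sle2c1_B1a and 1.5 in Sle2c1_Bs. It averaged 2.04 in B6_B1a and 1.62 in B6_Bs. The set used for Ndufs5 averaged 1.05 in Sle2c1_B1a and 1.02 in Sle2c1_Bs, and 1.38 in B6_B1a and 1.06 in B6_Bs.

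By complex, counts are to be read against the shares of all features (11% higher and 14.7% lower in Sle2c1, 9.02% higher and 12.2% lower in B6). Most subunits lay above the floor throughout, among them 30 of complex I and 17 of complex V. Of the other 8870 features above it throughout, more passed, 35.8% in Sle2c1 and 31.1% in B6. Of the 32 tested subunits of complex I, 5 were higher in B1a cells and 1 was lower in Sle2c1 (18.8% in all), and 2 were higher and 2 lower in B6 (12.5% in all). Complex V had 1 higher and 1 lower of 17 in Sle2c1, and 2 higher in B6. Complex IV had 0 of 16 called in Sle2c1 (0 at an unadjusted p under 0.05) and 1 lower in B6. Complex III had 0 of 8 in either strain by limma, with 1 at an unadjusted p under 0.05 in Sle2c1 and 0 in B6. The 4 Sdhaf assembly factors did not pass in any comparison, with 1 at an unadjusted p under 0.05 between the cell types in each strain.

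Complex II, which also works in the citric acid cycle, had no subunit past the test in any comparison. Sdha, its flavoprotein, stood at 3.21, 3.16, 3.16 and 3.15 in Sle2c1_B1a, against 3.28, 3.29, 3.25 and 3.19 in B6_B1a. These overlapped through Sle2c1_B1a 1 and B6_B1a 4 (-0.08 ± 0.05 units, limma adjusted p = 0.384). Sdhb, the iron-sulfur subunit, averaged 2.05 ± 0.07 in Sle2c1_B1a, 1.99 ± 0.05 in B6_B1a, 2.01 ± 0.12 in Sle2c1_Bs and 1.98 ± 0.08 in B6_Bs (SD, n = 4 each). The membrane anchors Sdhc and Sdhd likewise passed in no comparison. For Sdhd the 95% interval of the strain difference was -0.10 to 0.10 units in B1a cells and -0.13 to 0.08 in Bs cells. The 4 subunits had 0 members at an unadjusted p under 0.05 in all 5 comparisons in limma.

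Isoforms of complex IV differed in the number of arrays on which they lay above the floor. Cox4i1, Cox6a1, Cox6b1, Cox7a2, Cox7a2l and Cox8a, the forms found in most tissues, lay above the floor on all 16 arrays. Cox4i2, known from lung, was above it on 3 arrays, the muscle forms Cox6a2, Cox7a1 and Cox8b on 6, 7 and 2, and the testis forms Cox6b2, Cox7b2 and Cox8c on 1, 11 and 13. Ndufa4, a complex IV subunit despite its name, was above the floor on all 16 arrays, and its hypoxia-induced relative Ndufa4l2 on 10. Cox4i2, Cox6b2, Cox8b and Ndufb4 did not pass the filter and were not tested. No level is read from a probe set at the floor, and levels of different probe sets are not compared.

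**Figure D4:**
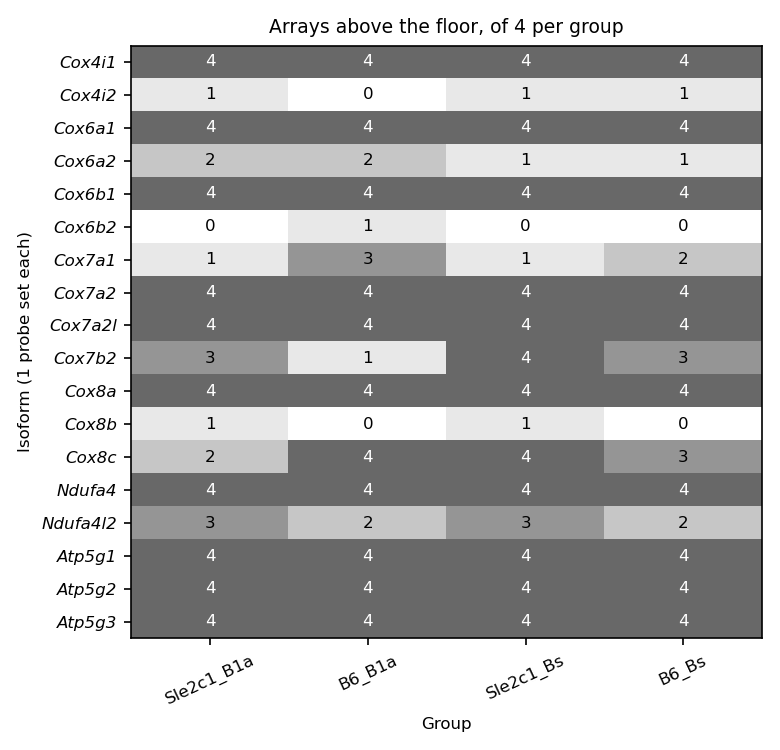
Number of arrays, of 4 per group, on which each isoform's probe set lay above the floor; rows are isoforms, columns the 4 groups, and darker cells mean more arrays. The forms found in most tissues lie above the floor on all 16 arrays, and Cox4i2, Cox6b2 and Cox8b on 3, 1 and 2.

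Regulators of the pathway passed in both directions between the cell types, 55.6% of them in each strain. Of all features, 11% were higher and 14.7% lower in Sle2c1, and 9.02% were higher and 12.2% lower in B6. Of the other 8870 features above the floor throughout, 35.8% passed in Sle2c1 and 31.1% in B6. The regulators and the further lists below were not split by the floor. Of 18 regulators of mitochondrial biogenesis, 5 were higher and 5 lower in B1a than in Bs cells in Sle2c1, and 3 were higher and 7 lower in B6, with a median difference of -0.15 and -0.13 units. Myc, a driver of growth and of mitochondrial biogenesis, averaged 2.54 in Sle2c1_B1a and 1.62 in Sle2c1_Bs (0.915 ± 0.11 units, limma adjusted p = 3.75e-05), and 2.31 in B6_B1a and 1.62 in B6_Bs (0.70 ± 0.11 units, limma adjusted p = 5.33e-04). Pprc1, a coactivator of the PGC-1 family that responds to growth signals, was higher by 0.58 ± 0.07 units in Sle2c1 and 0.52 ± 0.07 in B6. Tfam, which packages and transcribes mitochondrial DNA, was lower by -0.34 ± 0.05 units in Sle2c1 and -0.32 ± 0.05 in B6. Polg2, the accessory subunit of the mitochondrial DNA polymerase, was lower by -0.59 ± 0.08 and -0.56 ± 0.08 units.

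Assembly factors outside the member rule passed in a share near that of all features. Of 42 tested, 4 were higher and 4 lower in Sle2c1 (19% in all, where 11% of all features were higher and 14.7% lower), and 7 were higher and 4 lower in B6 (26.2% in all, where 9.02% were higher and 12.2% lower). Cox20, which helps to mature subunit 2 of complex IV, was lower in B1a cells by -0.47 ± 0.05 units in Sle2c1 and -0.495 ± 0.05 in B6. Ndufaf4, a complex I assembly factor, was higher by 0.38 ± 0.05 and 0.27 ± 0.05 units, and Tmem70, needed to assemble ATP synthase, by 0.30 ± 0.05 and 0.33 ± 0.05 units.

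Of 16 citric acid cycle genes, 3 were higher and 2 lower in Sle2c1 (31.2% in all) and 1 was higher and 2 lower in B6 (18.8% in all), which is near the shares of all features just given. Fh1, the fumarase next to complex II in the cycle, was lower by -0.48 ± 0.05 and -0.52 ± 0.05 units, and Idh2, the mitochondrial NADP-dependent isocitrate dehydrogenase, by -0.905 ± 0.16 and -0.51 ± 0.16 units. The Idh2 groups overlapped in B6 (limma adjusted p = 0.0366), where the call held under 8 of 15 alternatives and with 3 of 8 arrays left out in turn (adjusted p = 0.0925 without B6_B1a 2, 0.1 without B6_B1a 4, 0.0733 without B6_Bs 1, 0.0948 without B6_Bs 2 and 0.101 without B6_Bs 3). Of 16 carriers, uncouplers and antioxidants, 3 were higher and 1 lower in Sle2c1 and 2 higher and 2 lower in B6 (25% in all in each strain). Gpx4, which removes lipid peroxides, was higher by 0.33 ± 0.05 and 0.40 ± 0.05 units. Of 5 other subunits and the ATP synthase inhibitor, 1 was higher in Sle2c1 and 0 passed in B6 in limma (0 at an unadjusted p under 0.05). Between the strains and in the difference of the strain effects, 0 genes of these lists passed in limma. At an unadjusted p under 0.05 there were 3 assembly factors, 2 regulators and 4 carriers or antioxidants between the strains in B1a cells and 0 genes in Bs cells.

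**Figure D5:**
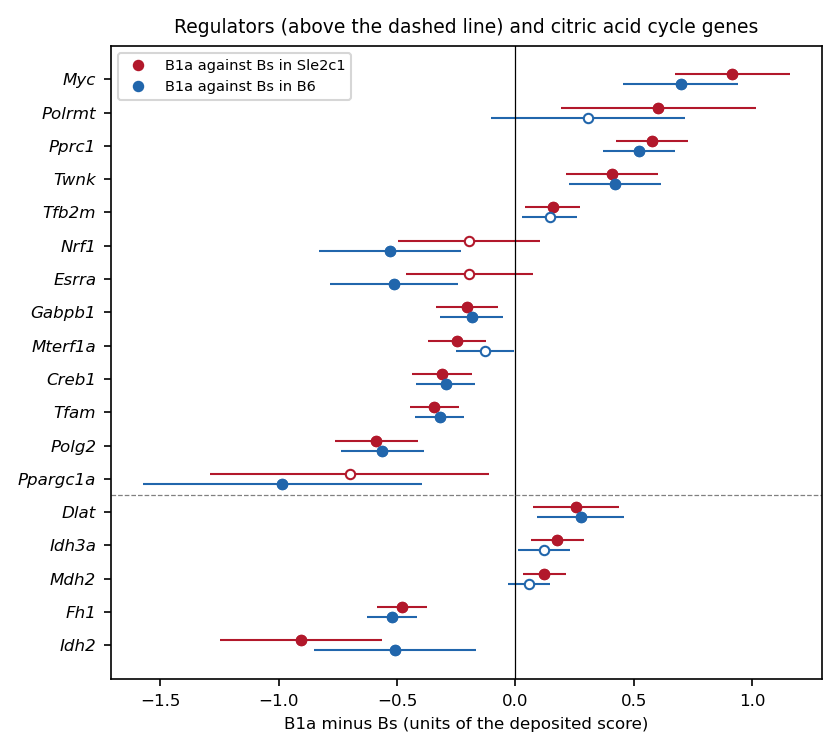
Difference between B1a and Bs cells, in units of the deposited score with 95% confidence intervals, for the regulators of mitochondrial biogenesis and the citric acid cycle genes that passed in at least 1 strain; filled points passed the limma test. Myc, Pprc1 and Twnk lie above 0 and Tfam, Polg2, Creb1 and Fh1 below it in both strains; under scaling by the median absolute deviation Idh3a in Sle2c1 changes sign (-0.0335).

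Markers of other cell types were set side by side in the B1a and Bs preparations. The mean over 15 macrophage markers was 1.06 to 1.11 in Sle2c1_B1a and 0.985 to 1.13 in Sle2c1_Bs, against 1.39 to 2.34 in B6_B1a and 1.21 to 1.33 in B6_Bs. These overlapped in Sle2c1, where 3 of the 15 were higher and 4 lower in B1a cells, and 9 were higher and 1 lower in B6. Over 6 T cell markers it was 0.529 to 1.09 in Sle2c1_B1a and 0.674 to 0.792 in Sle2c1_Bs, and 1.06 to 1.28 in B6_B1a and 0.792 to 0.904 in B6_Bs. Over 6 mast cell markers it was 0.788 to 1.43 in Sle2c1_B1a and 0.555 to 0.745 in Sle2c1_Bs, and 1.30 to 1.82 in B6_B1a and 0.495 to 0.662 in B6_Bs, with Mcpt4 and Tpsb2 at the floor on all Bs arrays. Over 4 NK cell markers it was 0.495 to 0.805 in Sle2c1_B1a and 0.834 to 1.37 in Sle2c1_Bs, and 0.495 to 0.582 in B6_B1a and 1.25 to 1.56 in B6_Bs. Their part in the members' differences was not tested.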

How the data were processed

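The authors deposited 1 table of values for 45101 probe sets, 64 of them array controls, on 16 arrays. Its unit is a score: the deposited score behaves like a log signal, but how the authors computed it is not given in the sources used here, and it holds no count or depth, so the number of arrays limits the precision. RNA was amplified and labelled with biotin, per the labels' protocols.

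Each array's lowest value was shared by 22.8% to 35.6% of its probe sets and carries no level. Values under the floor of 0.495 were raised to it. A probe set was kept if it exceeded the 40th percentile on 4 or more arrays (35032), with 1 per gene by highest mean (22727 features, 15129 named by a single platform symbol, names updated by Entrez identifier through a RefSeq table). Cox6a2's probe set depends on taking that mean after the floor. In limma 3.58.1 (R 4.3.3, statmod 1.5.0) 4 group means were fitted over 16 arrays. The script was tested on simulated data. Members, lists and naming rule (members past the threshold, otherwise the 3 with the smallest adjusted p, isoform families, complex II, up to 4 per further list) were chosen with earlier results of these data known.

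Same-numbered arrays of the strains correlated by 0.14 to 0.714 (deviations from group means) in Bs cells, over 0.1 in all 4 pairs, so the numbers, taken from the titles, were treated as pairs there. Differently numbered Bs arrays of the strains correlated by -0.614 to 0.32. Alternatives changed the filter, floor, probe set choice, scaling, test, arrays, block and threshold.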

Additional observations from a re-analysis of the deposited data

Results flagged for a closer look

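Cox6b1, a subunit on the intermembrane side of complex IV, read 2.89 on B6_Bs 3, with the nearest of the other B6_Bs arrays at 2.96. Sdha read 3.21 on Sle2c1_B1a 1, with the nearest of the other arrays of its group at 3.16. Each was singled out because 1 array lay farther from its nearest neighbour, relative to the range of its group of 4, than Dixon's critical share allows. Of 105 such groups examined among the named members, 2 met this, and chance alone flags about 1 in 20 groups.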

How the results depend on the processing

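In the strain comparisons and in the difference of the strain effects, 0 members were called under every alternative run and with each array left out. Between the cell types, 9 members were called in Sle2c1. The count was 3 with median centring, 33 with scaling by the median absolute deviation, 5 with percentile ranks and 5 without a floor. In B6, 8 were called. The count was 3 with median centring, 15 with scaling by the median absolute deviation, 3 with percentile ranks, 4 without a floor, 14 with the floor at 1, 13 with a trended and robust fit, 21 with array quality weights, 3 with the 8 arrays compared alone and 5 without the 4 arrays that stood apart (Sle2c1_B1a 4, B6_Bs 1, B6_Bs 3 and Sle2c1_Bs 3). The cause was not tested, except that fewer arrays enter the last 2. Counts over all features moved as well. In Sle2c1 5856 features passed, against 4948 with median centring and 8514 with scaling by the median absolute deviation. In B6 4833 features passed, against 4365 with median centring, 6544 with scaling by the median absolute deviation and 10442 with array quality weights.

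With 1 array left out, the count ran from 3 to 10 in Sle2c1 and from 2 to 10 in B6. It was 4 without Sle2c1_B1a 2, 3 without Sle2c1_Bs 2 and 5 without Sle2c1_Bs 3 in Sle2c1. In B6 it was 3 without B6_B1a 1, 2 without B6_B1a 2, 3 without B6_B1a 3, 5 without B6_B1a 4, 4 without B6_Bs 2, 3 or 4, 5 without Sle2c1_B1a 2, 4 without Sle2c1_Bs 2 and 5 without Sle2c1_Bs 3. Calls of Ndufb1 and Ndufa8 in both strains and of Cycs in Sle2c1 held with each of 8 arrays left out. Each of the 8 arrays compared in Sle2c1, and each in B6 except B6_Bs 1, ended at least 1 other call when left out. Highest adjusted p-values were then 0.0771 (Ndufs3), 0.0729 (Ndufs8), 0.106 (Ndufb2), 0.113 (Atp5g2), 0.114 (Ndufa7) and 0.0764 (Atp5a1) in Sle2c1, and 0.0608 (Cycs), 0.0955 (Atp5g2), 0.117 (Atp5e), 0.116 (Ndufs8), 0.147 (Cox7b2) and 0.142 (Ndufs1) in B6.

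With the replicate numbers as a block, which pair no arrays across cell types by the check above (same-number correlations from -0.269 to 0.156 in Sle2c1 and from -0.0992 to 0.129 in B6), 2 members were called in Sle2c1 (Cycs and Ndufb1) and 2 in B6 (Ndufa8 and Ndufb1). In B1a cells, where 2 of 4 pairs of strains correlated over 0.1, Cdkn2c had an adjusted p of 0.108 with the block, and 0 members were called.

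Signs that turned were those of Txn2 in B6 with the mean of a gene's probe sets (0.10) and, under scaling by the median absolute deviation, of Ndufs3 (-0.0738), Ndufb2 (-0.0554), Atp5g2 (-0.0645), Slc25a4 (-0.0549), Idh3a (-0.0335) and Ndufab1 (-0.0444) in Sle2c1 and Cycs (-0.0031) in B6. The cause was not tested. Of the other settings of named genes, 1547 kept direction and side of the threshold and 300 no longer passed. With 4 arrays a group, the 95% interval of a member's difference had a median half-width of 0.146 units, which limits what could be seen.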
